A study of Mus musculus with 16 samples.

Results

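Bowman's glands lie under the olfactory epithelium and send ducts through it, and 5 genes used as markers of their cells are described here: Sox9, Sox10, Aqp5, Muc5b and Gpx6. They were taken by gene symbol, with the probe set of highest mean for each gene, and all 5 were measured among 19505 genes. RNA came from dissociated olfactory mucosa; its donors were S100a5-tauGFP mice, in which a GFP fused to tau follows S100a5, a calcium-binding protein gene of active olfactory sensory neurons. All 4 groups come from mice with this reporter, so no group lacks it, and each array holds RNA of 3 pooled mice. The groups are cells sorted for GFP (GFP+) after octanol, cells without it (GFP-) after octanol, GFP+ cells after vehicle, which was filtered air, and GFP- cells after vehicle, with 4 arrays in each. The 24 mice were of both sexes and aged 7 to 12 weeks. Each spent 40 h alone in a chamber with clean air at 3.1 L/min, and from 26 h on received octanol or vehicle for 10 s every 20 min. Octanol, an alcohol, served as the odorant. The labels name tissue and sort and no gland dissection, so any gland RNA reached these arrays as part of the dissociated mucosa.

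The glands secrete most of the mucus that covers the olfactory cilia, with water, salts, mucins, antimicrobial proteins and enzymes. Sox9 and Sox10 are transcription factors of the SRY-related family; Sox9 is used as a marker of gland and duct cells, and Sox10 of gland cells. Aqp5 is a water channel of the apical membrane of gland cells in salivary, lacrimal and airway epithelium. Muc5b is a gel-forming mucin, and Gpx6 is a glutathione peroxidase, one of the enzymes that reduce peroxides, known from the olfactory mucosa. None of the 5 belongs to glands alone: Sox9 is also a gene of cartilage and Sox10 of the glia that wrap olfactory nerves.

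Promoter windows from RefSeq (mouse GRCm38.p6, 250 bases before and 50 after the start of the gene) were found for Aqp5 and Gpx6, the 2 of the 5 genes held by the table. They are shown because both genes were lower in GFP+ than in GFP- cells while their start regions differ in base composition. The Gpx6 window lies on the plus strand at chr13:21311953-21312252 and the Aqp5 window on the plus strand at chr15:99590778-99591077. Capitals mark an E-box, CACGTG, and in Gpx6 also ATTGG, which is the CCAAT box read on the other strand.
Gpx6: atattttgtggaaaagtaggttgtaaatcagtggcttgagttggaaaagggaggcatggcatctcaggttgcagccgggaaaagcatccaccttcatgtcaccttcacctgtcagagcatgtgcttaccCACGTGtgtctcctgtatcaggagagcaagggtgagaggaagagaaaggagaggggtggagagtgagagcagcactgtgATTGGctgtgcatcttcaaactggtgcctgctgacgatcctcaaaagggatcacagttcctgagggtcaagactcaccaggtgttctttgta
Aqp5: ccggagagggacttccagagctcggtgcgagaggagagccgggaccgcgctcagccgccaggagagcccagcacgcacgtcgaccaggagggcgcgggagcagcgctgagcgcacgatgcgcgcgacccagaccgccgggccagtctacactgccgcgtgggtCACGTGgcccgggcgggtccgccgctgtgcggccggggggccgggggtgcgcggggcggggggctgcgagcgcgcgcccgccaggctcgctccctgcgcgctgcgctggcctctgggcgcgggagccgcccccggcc

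The Aqp5 window held 46 CpG dinucleotides at a GC content of 79.7%, and the Gpx6 window 3 at 50.0%, where the median over 32851 promoters was 7 at 52.7%. CACGTG began 87 bases before the start of Aqp5, written as position -87, and at position -121 in Gpx6. This motif stood in 7.15% of all promoter windows of this length, and CCAAT, which Gpx6 held at position -42 on the minus strand, in 37.4%. Neither window held the Sox core ACAAT, present in 31.0% of promoters, or the TATA box TATAAA, present in 13.6%. Both strands were searched, no 2 matches overlapped, and the 4 motifs were chosen after these windows had been read. A match describes the letters only.

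The values are log2 signals, on which 1 unit is a doubling. A background level of 6.32 log2 was set from 321 vomeronasal receptor genes, most of which belong to another organ: 95% of their mean signals lay below it. Array medians ran from 7.42 to 7.70 log2, and 63.8 to 67.2% of genes lay above background on an array. S100a5 averaged 16.80 ± 0.04 log2 in GFP+ cells after octanol against 15.93 ± 0.13 in GFP- cells, and 16.90 ± 0.11 in GFP+ cells after vehicle against 16.08 ± 0.22 in GFP- cells (SD, n = 4), as the sort on its reporter requires. Arrays of 1 group correlated at 0.990 to 0.994 over all genes and arrays of the opposite fractions of an exposure at 0.944 to 0.965. The number of arrays limits the precision. For GFP+ against GFP- cells, p-values measure the spread of that difference over pools of 3 mice. For octanol against vehicle, they measure the spread between such pools.

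**Figure D1:**
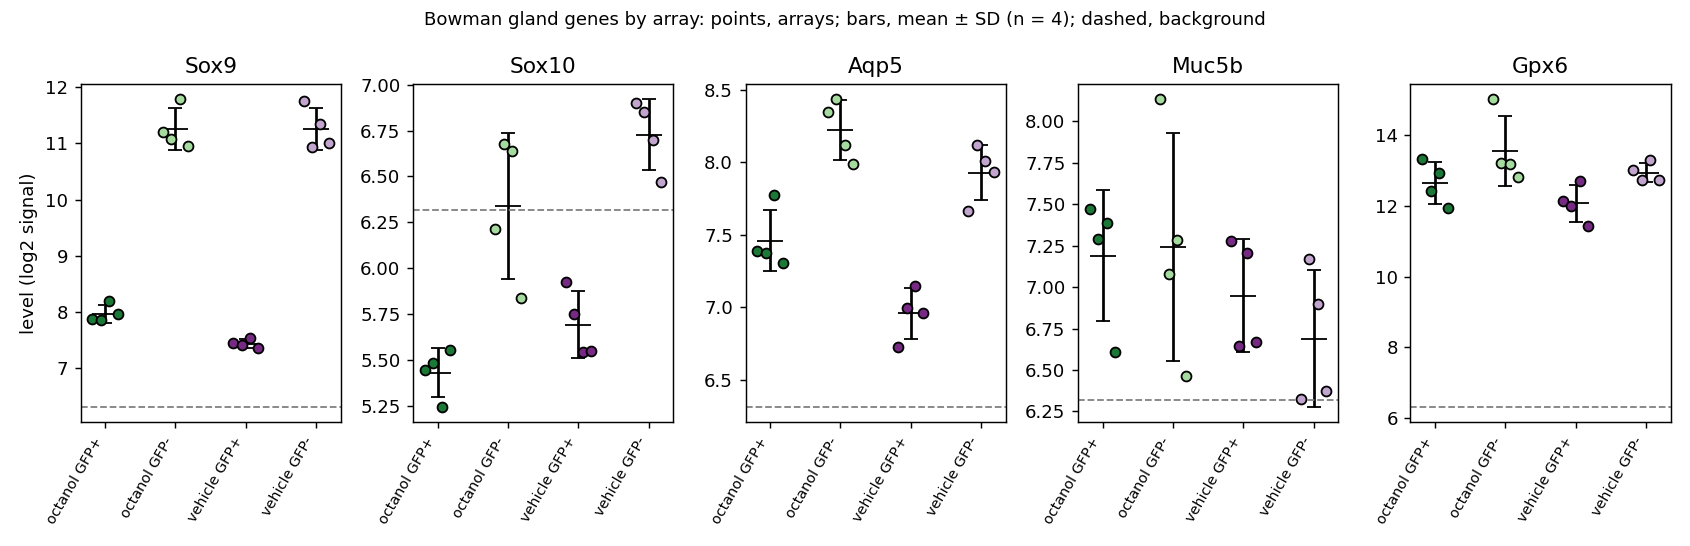
Level of each Bowman gland gene on every array, in log2 signal, by group; points are arrays, bars the mean ± SD (n = 4) and the dashed line the background of 6.32 log2. Each panel has its own axis, and Sox9 shows the widest gap, with GFP+ arrays at 7.36 to 8.20 and GFP- arrays at 10.94 to 11.79.

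The first comparison sets GFP+ against GFP- cells within an exposure. Sox9, Sox10, Aqp5 and Gpx6 were lower in GFP+ cells after octanol and after vehicle, while Muc5b passed the test in neither. Sox9 had the largest difference of the 5, 9.71-fold lower after octanol and 14.1-fold lower after vehicle, and Aqp5 and Gpx6 were 1.69-fold to 1.96-fold lower. Sox10 lay under background on every GFP+ array. After octanol 4 of the 5 genes were called lower and 0 higher, where 13.2% of all genes were called lower and 16.7% higher (limma, adjusted p under 0.05). After vehicle 4 of 5 were again called lower and 0 higher, where 13.5% of all genes were called lower and 14.7% higher. The median difference of the 5 genes was -0.91 log2 after octanol and -0.97 after vehicle, beside 0.14 and 0.13 over all genes. Fewer cells of a type and less RNA per cell cannot be told apart in such sorted bulk samples.

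Among the transcription factors, Sox9 measured 7.87, 7.86, 8.20 and 7.96 log2 on the GFP+ arrays after octanol, against 11.20, 11.07, 11.79 and 10.95 on the GFP- arrays. After vehicle it measured 7.45, 7.41, 7.54 and 7.36 on the GFP+ arrays, against 11.75, 10.94, 11.34 and 11.00 on the GFP- arrays. Every GFP+ array was below every GFP- array, and no value was near background. The difference was -3.28 log2 after octanol (SE 0.14, 95% interval -3.60 to -2.96, adjusted p = 1.98e-07, limma) and -3.82 after vehicle (SE 0.14, 95% interval -4.14 to -3.50, adjusted p = 8.75e-08). Counted from the most negative difference of all genes, Sox9 was number 355 after octanol and number 251 after vehicle. By pool, in the order of replicates 1 to 4, Sox9 differed by -3.33, -3.21, -3.58 and -2.99 after octanol and by -4.30, -3.53, -3.80 and -3.64 after vehicle. The GFP- means were close together, 11.25 ± 0.37 after octanol and 11.26 ± 0.37 after vehicle, whereas the GFP+ means were 7.97 ± 0.16 and 7.44 ± 0.08.

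Sox10 was a weak signal throughout. It measured 5.45, 5.48, 5.24 and 5.55 log2 on GFP+ arrays after octanol, against 6.21, 6.68, 6.64 and 5.84 on GFP- arrays, 2 of which were above background. After vehicle it measured 5.93, 5.75, 5.54 and 5.55 on GFP+ arrays, against 6.90, 6.85, 6.70 and 6.47 on GFP- arrays, all 4 above background. The fractions did not overlap in either exposure. The fitted difference was -0.91 log2 after octanol (SE 0.16, adjusted p = 0.00223, limma) and -1.04 after vehicle (SE 0.16, adjusted p = 9.79e-04). With each GFP+ value set to 6.32 and the GFP- mean as measured, the GFP+ level of Sox10 was at least 1.02-fold lower after octanol and at least 1.33-fold lower after vehicle. With values of both fractions raised to at least 6.32, the difference after octanol was -0.17 log2 and was no longer called (adjusted p = 0.273).

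The water channel gene Aqp5 gave 7.39, 7.38, 7.77 and 7.31 log2 in GFP+ cells after octanol, against 8.34, 8.43, 8.12 and 7.99 in GFP- cells. After vehicle it gave 6.73, 7.00, 7.15 and 6.96 in GFP+ cells, against 7.67, 8.11, 8.005 and 7.93 in GFP- cells. All these arrays were above background, but the vehicle GFP+ mean of 6.96 was a weak signal, not far above 6.32. GFP+ arrays lay below GFP- arrays in both exposures, by 1.69-fold after octanol (-0.76 log2, SE 0.13, adjusted p = 0.00132, limma) and 1.96-fold after vehicle (-0.97 log2, SE 0.13, adjusted p = 2.58e-04). The pool of octanol replicate 3 had the smallest gap, -0.35 log2, and the other 7 pools ran from -1.12 to -0.68.

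The mucin gene Muc5b was the exception. It measured 7.47, 7.29, 7.38 and 6.61 log2 in GFP+ cells after octanol, against 8.13, 7.08, 7.29 and 6.46 in GFP- cells. After vehicle it measured 7.28, 6.64, 7.21 and 6.67 in GFP+ cells, against 6.32, 7.17, 6.90 and 6.37 in GFP- cells. The fractions overlapped in both exposures, and the groups spread widely, with SDs of 0.34 to 0.69 log2. Muc5b was also a weak signal, with group means of 6.69 to 7.24 log2. Its lowest array, at 6.322, stood just over the background of 6.316. The difference was -0.05 log2 after octanol (95% interval -0.54 to 0.44, adjusted p = 0.874, limma) and 0.26 after vehicle (95% interval -0.23 to 0.75, adjusted p = 0.399). These intervals leave room for a difference of Muc5b in either direction. One pool of each exposure went against the other 3: octanol replicate 1, at -0.66, and vehicle replicate 2, at -0.52. Without octanol replicate 1 the octanol value turned to 0.15, and with each array centred on its own median the vehicle value was 0.59 and passed (adjusted p = 0.0349).

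Gpx6 was bright on every array. It measured 13.32, 12.42, 12.92 and 11.93 log2 in GFP+ cells after octanol, against 15.02, 13.21, 13.20 and 12.81 in GFP- cells. After vehicle it measured 12.15, 12.01, 12.71 and 11.43 in GFP+ cells, against 13.001, 12.73, 13.30 and 12.73 in GFP- cells. The fractions overlapped after octanol, where the GFP+ array of replicate 1 exceeded 3 GFP- arrays, and just missed overlap after vehicle. Within each pool GFP+ was below GFP- in 4 of 4 pools of both exposures, with differences of -1.70 to -0.28 log2 after octanol and -1.30 to -0.59 after vehicle. The fitted difference was -0.91 after octanol (SE 0.20, adjusted p = 0.00777, limma, 1.88-fold lower) and -0.86 after vehicle (SE 0.20, adjusted p = 0.0106, 1.82-fold lower). This call rests on taking the fractions of a pool together: without the pool as a block, the adjusted p of Gpx6 was 0.106 after octanol and 0.130 after vehicle. Without the pool of vehicle replicate 4 it was 0.0536 after vehicle, at -0.72 log2. The GFP+ and GFP- arrays did not overlap in 3 of the 5 genes after octanol, with 12.4% of all genes lower in this way, and in 4 of 5 after vehicle, with 13.2%.

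**Figure D2:**
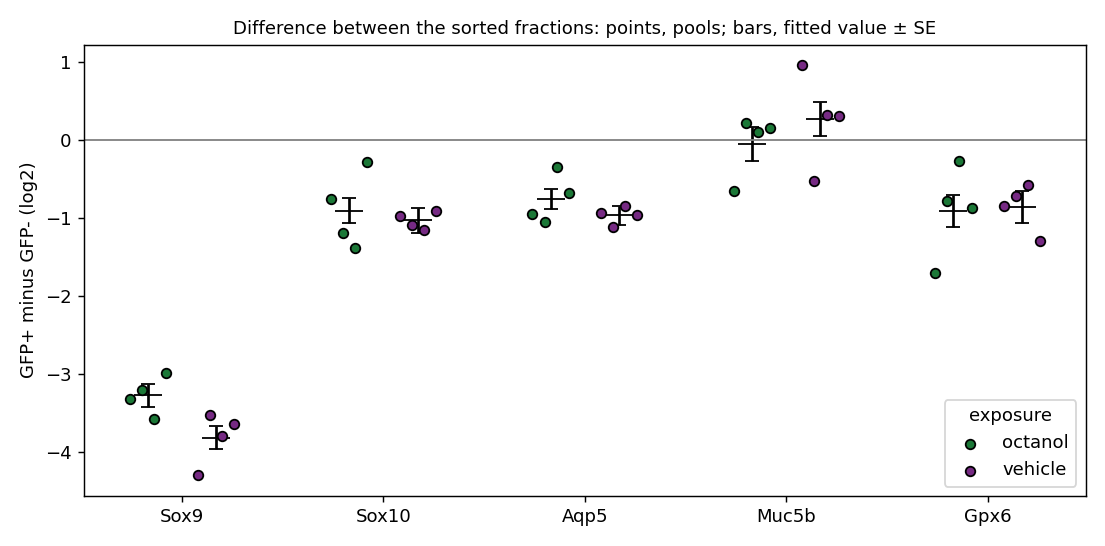
GFP+ minus GFP- difference of each Bowman gland gene within each pool of 3 mice, in log2; points are the 4 pools of an exposure and bars the fitted difference ± SE. Sox9 lies between -4.30 and -2.99, Sox10, Aqp5 and Gpx6 between -1.70 and -0.28, and Muc5b on both sides of 0.

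Most markers of blood leukocytes, simple epithelium and microvillar cells were also called lower in GFP+ cells, and most of ciliated cells higher. All 5 neutrophil markers, 5 of 5 measured monocyte and macrophage markers and 5 of 5 lymphoid markers were called lower in GFP+ cells in both exposures, with median differences of -6.80, -5.66 and -2.10 log2 after octanol and -8.19, -5.87 and -2.53 after vehicle. Of 6 keratin and adhesion genes of simple epithelium, 5 were called lower in both exposures (medians -1.55 and -1.72); Krt18, a keratin gene, differed by -2.92 after octanol and -3.03 after vehicle. All 6 markers of ionocyte-like microvillar cells were called lower (medians -2.93 and -2.80), among them Foxi1, their transcription factor, at -3.40 and -3.38. Of 5 sustentacular cell markers, 3 were called lower (medians -0.88 and -0.98), as were 5 of 5 tuft-like microvillar markers (-1.96 and -1.56). Of 6 cartilage markers, 0 were called lower, 3 were called higher after vehicle and 1 was above background in any group, and of 7 glial markers (medians 0.24 and 0.20) 1 was called lower, the receptor gene Erbb3, with group means of 6.23 log2 or less, and 1 higher after vehicle, the lipid-binding protein gene Fabp7, by 0.52. Of 4 measured ciliated cell markers, 3 were called higher after octanol and 4 after vehicle, with 0 lower (medians 0.51 and 0.55). Endothelial markers were called lower in 2 of 5 in both exposures, fibroblast markers in 0 of 4 after octanol and 1 after vehicle, and horizontal basal cell markers in 1 of 5, with 1 higher after octanol. Markers with a mean above background in any group were 1 of 5 endothelial, 3 of 4 fibroblast, 1 of 5 horizontal basal and 3 of 7 glial. The endothelial gene Tek, called lower, had group means of 5.88 log2 or less, so these lists say little. All 5 markers of immature neurons were called lower (medians -2.23 and -2.83). Of 9 mature sensory neuron markers, 5 were called higher in GFP+ cells after octanol and 4 after vehicle, by small differences (medians 0.30 and 0.19). Among them Omp averaged 18.22 log2 in GFP+ and 18.10 in GFP- cells after octanol, and 18.18 and 18.11 after vehicle. Both fractions thus held much mature neuron RNA. The part of these cells in the differences of the Bowman gland genes was not tested.

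**Figure D3:**
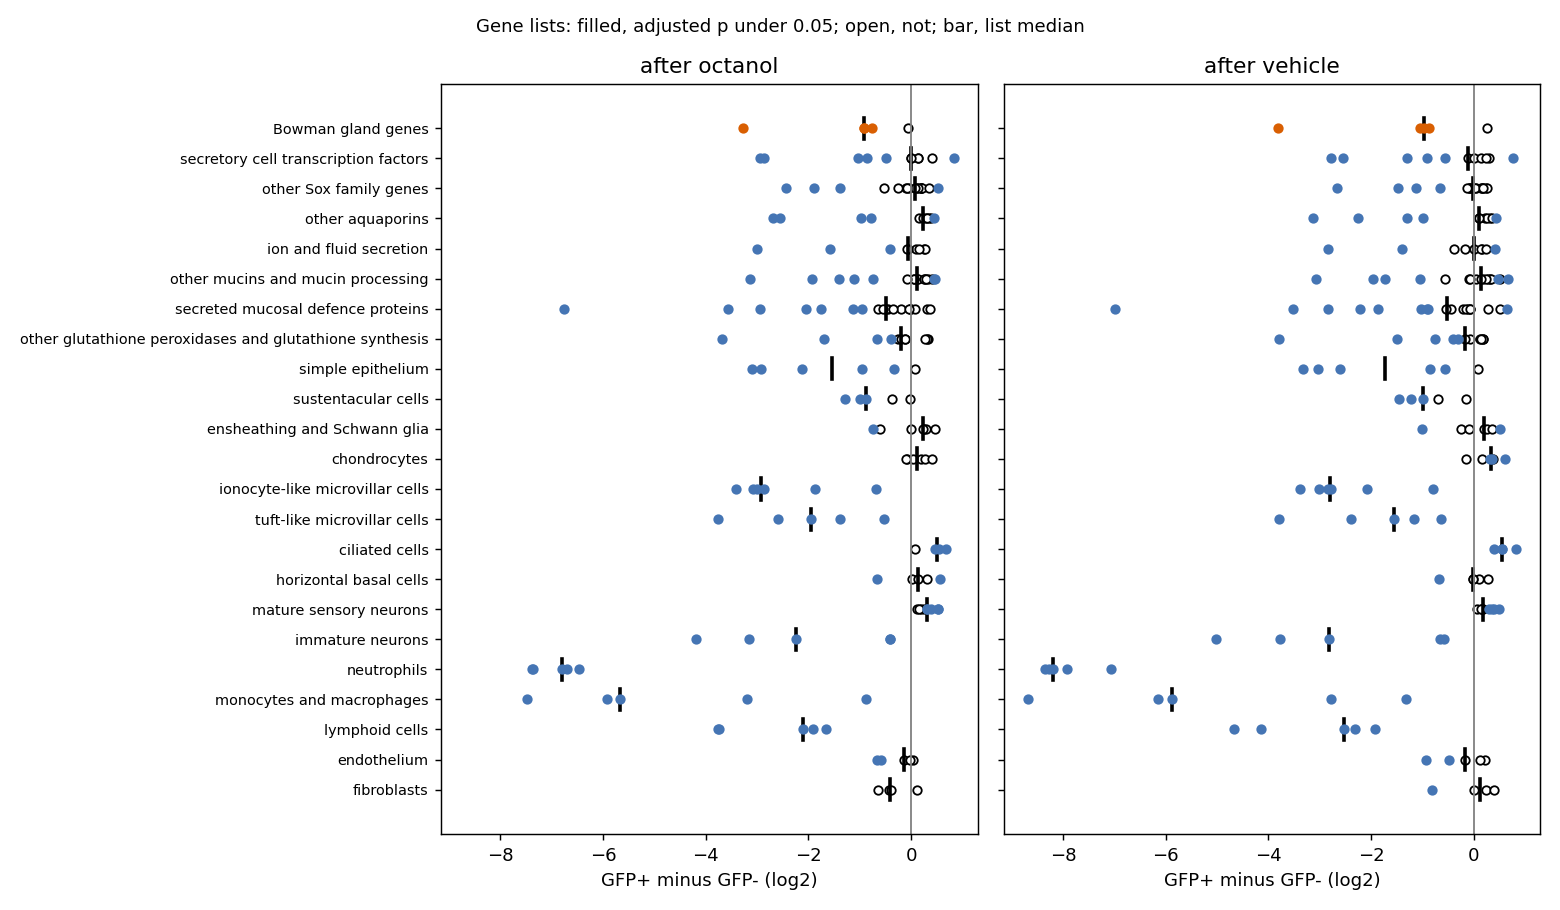
GFP+ minus GFP- difference in log2 for each measured gene of the Bowman gland, related and cell marker lists, after octanol and after vehicle; filled points passed the adjusted p of 0.05, open points did not, and bars are list medians. The Bowman gland genes, in orange, have medians of -0.91 and -0.97, between those of the simple epithelium list (-1.55 and -1.72) and those near 0.

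Genes related to the 5 by family or role are given next, with the transcription factors first. Of 11 measured transcription factor genes of secretory cells, 5 were called lower and 1 higher in GFP+ cells in both exposures, with medians of -0.01 log2 after octanol and -0.10 after vehicle. Ehf, an epithelial ETS factor, was at least 5.46-fold lower after octanol and at least 4.55-fold lower after vehicle. Ascl3, a factor of salivary duct cells and of the ionocyte-like cells, had differences of -2.87 and -2.77, with 1 of 4 GFP+ arrays above background in each exposure. Elf5, an ETS factor of glandular epithelium, had -1.02 and -1.29. Creb3l1, a factor of the secretory pathway, was the 1 called higher, by 0.83 and 0.76. Of 17 other Sox genes, 3 were called lower and 1 higher after octanol, and 4 lower and 0 higher after vehicle. Sox11, of immature neurons, had -2.43 and -2.66, and Sox2, of sustentacular and progenitor cells, -1.38 and -1.47, both nearer to 0 than the Sox9 differences of -3.28 and -3.82. Sox6 had -1.89 and -1.13, with 0 GFP+ arrays above background. Of its 4 GFP- arrays, 2 were above background after octanol and 1 after vehicle, and it was at least 1.10-fold lower after octanol.

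Of 11 other aquaporins, 4 were called lower and 1 higher in both exposures. Aqp1, known from red cells and endothelium, differed by -2.69 log2 after octanol and -3.12 after vehicle. Aqp9, a channel for glycerol and water found in leukocytes, differed by -2.55 and -2.25, with 0 GFP+ arrays above background, and Aqp4, a channel of glia and supporting cells, by -0.98 and -1.29. The Aqp5 differences were -0.76 and -0.97. Of 9 measured genes for ion and fluid secretion, 3 were called lower and 0 higher after octanol, and 2 lower and 1 higher after vehicle. The chloride channel gene Cftr differed by -3.00 and -2.84 and the potassium channel gene Kcnn4 by -1.58 and -1.39. With 0 GFP+ arrays above background, Kcnn4 was at least 1.42-fold lower after octanol and at least 1.09-fold lower after vehicle. The muscarinic receptor gene Chrm3 was called lower after octanol (-0.40) and Chrm1 higher after vehicle (0.41), both under background in those groups, while the chloride cotransporter gene Slc12a2, which drives fluid secretion in many glands, differed by 0.10 and -0.00 and was not called.

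Of 17 measured genes for other mucins and their processing, 5 were called lower and 2 higher after octanol, and 4 lower and 2 higher after vehicle. Among membrane mucins, Muc20 differed by -1.94 and -1.97 log2 and Muc1 by -1.41 and -1.72. Gcnt1, an enzyme of mucin sugar chains, was at least 8.16-fold lower after octanol and at least 7.40-fold lower after vehicle. Of the gel-forming mucins, Muc2 differed by 0.12 and 0.17 and, like Muc5b, was not called, and Muc5ac was under background on every array. Of 11 other genes for glutathione peroxidases and glutathione synthesis, 4 were called lower after octanol and 5 after vehicle, with 0 higher. Gpx1, the general intracellular peroxidase, differed by -3.69 and -3.79, Gsr, glutathione reductase, by -1.69 and -1.49, and Gpx3, a secreted peroxidase, by -0.66 and -0.75.

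Of 19 genes for secreted proteins of mucosal defence, 7 were called lower and 0 higher after octanol, and 8 lower and 1 higher after vehicle, with medians of -0.49 and -0.52 log2. Ltf, or lactoferrin, an iron-binding protein of glands and of neutrophil granules, had the most negative differences, -6.76 and -6.99. Lyz1, a lysozyme, differed by -3.57 and -3.52, and Wfdc18, of the whey acidic protein family, by -2.93 and -2.83. Scgb1c1, a secretoglobin of the nasal mucosa, differed by -2.04 and -2.20. Bpifb3 and Bpifa1, proteins of the family that binds bacterial lipids, differed by -0.95 and -1.02, and by -1.13 and -0.92, all 4 called lower and close to the Gpx6 values of -0.91 and -0.86. Of the same family, Bpifb4 differed by -0.64 and -0.52 and Bpifb6 by -0.45 and -0.08, smaller differences than those of Gpx6. Over all these lists, the 0.14 and 0.13 medians of all genes are the level to read the list medians against, and the lists were not tested as sets.

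The next comparison sets octanol against vehicle. Within GFP+ cells 0 of 19505 genes were called by limma (727, or 3.73%, had an unadjusted p under 0.05), and within GFP- cells also 0 (894, or 4.58%), so none of the 5 genes was called. In GFP+ cells Sox9 and Aqp5 had every octanol array above every vehicle array, 2 of 5 genes, where 2.21% of all genes did not overlap in either direction and 1.25% were higher in this way. Sox9 differed by 0.53 log2 (SE 0.11, 95% interval 0.28 to 0.79, unadjusted p = 9.61e-04, adjusted p = 1.00), from 7.86 to 8.20 over the octanol arrays and 7.36 to 7.54 over the vehicle arrays. It was number 13 of all genes by p. Aqp5 differed by 0.50 log2 (SE 0.14, 95% interval 0.19 to 0.82, unadjusted p = 0.0053, adjusted p = 1.00). Gpx6 differed by 0.57 (SE 0.33), Muc5b by 0.24 (SE 0.22) and Sox10, under background on all 8 arrays, by -0.26 (SE 0.13), each with an adjusted p of 1.00. Those 3 overlapped between exposures.

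Cell markers in GFP+ cells are set beside these values, with 0 called in any list. The mean level of the 5 neutrophil markers was 8.38, 8.33, 9.82 and 10.79 log2 on the octanol arrays of replicates 1 to 4, against 8.47, 7.43, 7.22 and 8.45 on the vehicle arrays, with a median difference of 1.69, and octanol replicates 1 and 2 lay under vehicle replicates 1 and 4. The mean of the 5 sustentacular markers was 9.90, 9.85, 11.01 and 10.29 on the octanol arrays, against 9.65, 9.66, 10.31 and 10.25 on the vehicle arrays. The mean of the 6 simple epithelium markers was 8.08, 8.21, 8.64 and 8.40 on the octanol arrays, against 8.07, 8.05, 8.21 and 8.14 on the vehicle arrays. Octanol replicate 3 was the highest of the 4 octanol GFP+ arrays for Sox9, for Aqp5 and for the sustentacular and epithelial means. That array was also the highest of the 4 for most other lists, though not for the neutrophil or macrophage markers. Among these lists were the ionocyte-like (7.64 log2), glial (6.15) and cartilage (5.96) markers. Of the 4 arrays it also had the largest share of genes above background, 66.6%. Without octanol replicate 3 Sox9 differed by 0.46 and Aqp5 by 0.40. The part of these cells in the Sox9 and Aqp5 values was not tested.

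In GFP- cells 0 of the 5 genes separated the exposures, where 2.57% of all genes did not overlap and 1.06% were higher in this way. Sox9 differed by -0.01 log2 (95% interval -0.50 to 0.48, adjusted p = 0.999, limma). Aqp5 differed by 0.29 (SE 0.15), Muc5b by 0.55 (SE 0.32), Gpx6 by 0.62 (SE 0.40) and Sox10 by -0.39 (SE 0.19), each with an adjusted p of 0.982. The Gpx6 and Muc5b values lean on 1 array: without octanol GFP- replicate 1, which held 15.02 log2 of Gpx6 and 8.13 of Muc5b, they were 0.13 and 0.25. The effect of octanol on the difference between fractions was called for 0 of 19505 genes (886, or 4.54%, unadjusted). For Sox9 it was 0.54 log2 (SE 0.20, unadjusted p = 0.0241, adjusted p = 0.998), for Aqp5 0.21, for Sox10 0.13, for Gpx6 -0.05 and for Muc5b -0.31. So the Sox9 gap between fractions was smaller after octanol by a value that did not pass.

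**Figure D4:**
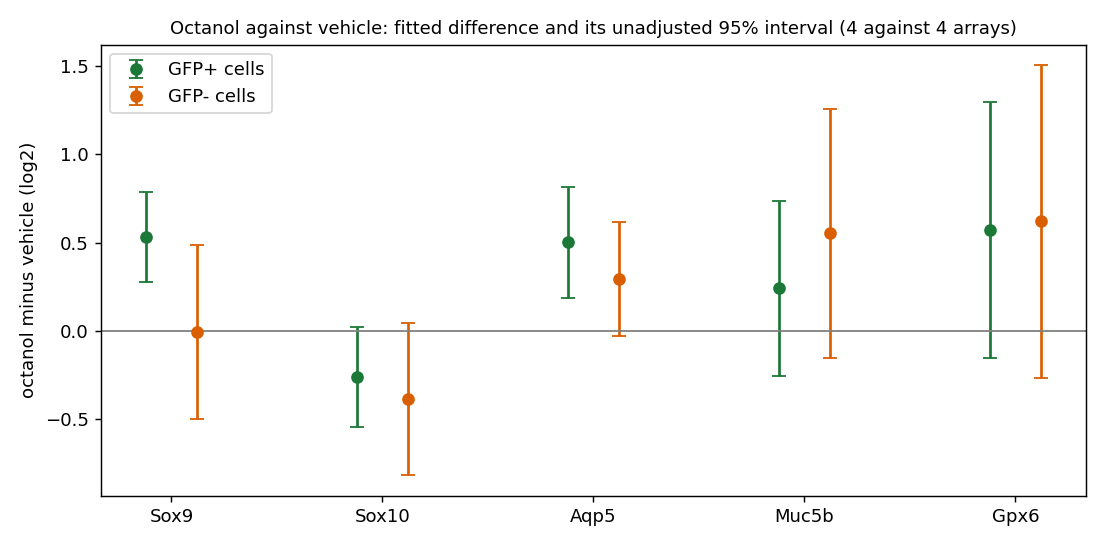
Octanol minus vehicle difference of each Bowman gland gene in log2, in GFP+ cells and in GFP- cells; points are fitted differences of 4 against 4 arrays and bars their unadjusted 95% intervals. The intervals of Sox9 (0.28 to 0.79) and Aqp5 (0.19 to 0.82) in GFP+ cells lie above 0, and the others reach across it.

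The 5 genes did not share 1 pattern over the 16 arrays. In level, Sox9 correlated with Aqp5 at 0.868 and with Sox10 at 0.864 (Pearson, 16 arrays), and with Muc5b at -0.08, as a description of arrays that share their fractions and pools. Sox9, Sox10 and Aqp5 were all lower in GFP+ cells, and values over both fractions carry that difference. The genes most like Sox9 in level, among 13610 above background in a group, were Hepacam2 (0.992), an adhesion protein gene, the odorant receptor gene Olfr1507 (0.991) and Adgrg2 (0.990), an adhesion receptor. Sox10 was most like the mucin gene Muc20 (0.929), Olfr75-ps1 (0.927) and Zfp296 (0.925). Aqp5 was most like Scgb1c1 (0.944), the mesothelin gene Msln (0.942) and Sntb1 (0.939). Muc5b was most like Bpifb6 (0.881), Rps27l (0.832) and Serpina3n (0.814), and Gpx6 like Bpifb3 (0.972), Bpifa1 (0.906) and Bpifb4 (0.902).

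With the mean of each group taken off, only differences between replicates remain, and there Gpx6 and Muc5b followed each other at 0.795 (Pearson, 16 arrays) and Sox9 and Sox10 at 0.378. Aqp5 correlated with Muc5b at 0.476 and with Gpx6 at 0.365, but with Sox9 at -0.163 and with Sox10 at -0.074. Gpx6 was most like Bpifb3 (0.950), Bpifb4 (0.938) and Cdcp3 (0.937), and Muc5b like Bpifb6 (0.912), Bpifb3 (0.858) and Bpifb4 (0.855). Sox9 was most like Zbtb1 (0.911), Pom121 (0.899) and Tcf3 (0.895), Sox10 like Vps4a (0.924), Slc25a20 (0.912) and Bphl (0.852), and Aqp5 like Schip1 (0.871), Gnb3 (0.845) and Clu (0.837). Of the 19 secreted defence genes, 12 are among the 13610 above background in a group. Of these 12, 8 exceeded 0.6 with Gpx6 and 8 with Muc5b, where 1.62% and 1.61% of the 13610 genes did. With Aqp5 2 of the 12 did (1.17% of all genes), and 0 with Sox9 (1.52%) or Sox10 (3.75%). The list was chosen with earlier results of these data known, and it holds the Bpif genes named as most like Gpx6 and Muc5b. These counts thus describe the arrays and are no independent support. The mean of all 19 correlated with Gpx6 at 0.915 and with Muc5b at 0.906. Of the other lists, the mean of the other aquaporins came next, at 0.690 with Gpx6 and 0.652 with Muc5b, and immature neurons had -0.670 with Gpx6. Sox9 was closest to the secretory cell transcription factors (0.719), then to the ionocyte-like markers (0.625). Sox10 was closest to the ionocyte-like markers (0.702), then to the ciliated cell markers (0.667) and the other mucins and mucin processing (0.655). Aqp5 was closest to the glial markers (0.735), then to the sustentacular markers (0.673) and the 19 secreted genes (0.607). Of the 7 glial markers, 4 or 5 had a mean under background in each group, which limits that likeness.

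Among the octanol pools, that of replicate 1 was high and that of replicate 4 low. Gpx6 deviated from its group mean by 0.67 log2 in GFP+ cells and 1.46 in GFP- cells of octanol replicate 1, and by -0.72 and -0.75 in replicate 4. Muc5b deviated by 0.28 and 0.89 in replicate 1, and by -0.58 and -0.78 in replicate 4. Bpifb4 deviated by 0.52 and 2.18 in replicate 1, and by -1.15 and -1.75 in replicate 4. Both fractions of each of these pools went the same way, whereas Sox9 stayed within 0.30 of its mean on those 4 arrays. Vehicle pools varied too. In vehicle replicate 3 Gpx6 deviated by 0.64 in GFP+ and 0.36 in GFP- cells, and Muc5b by 0.26 and 0.21. In vehicle replicate 4 Gpx6 deviated by -0.64 and -0.21, and Muc5b by -0.28 and -0.32, so replicate 4 was low in both exposures. In vehicle replicates 1 and 2 the fractions went opposite ways for Muc5b. The SD of Gpx6 over the octanol GFP- arrays, 0.99 log2, was at the 99.7th percentile of genes above background, and that of Muc5b, 0.69, at the 98.4th.

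Left out after the data were seen, octanol replicate 1 carried part of this. Over the other 14 arrays Gpx6 and Muc5b correlated at 0.608, and of the 12 secreted genes above background 7 exceeded 0.6 with Gpx6 (1.61% of all genes) and 7 with Muc5b (2.09%). The choice of the list limits these counts too. Gpx6 was then most like Bpifb4 (0.934), Tmem141 (0.911) and Bpifb3 (0.897), and Muc5b like Bpifb6 (0.853), Zfp458 (0.849) and Slc5a9 (0.836).

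**Figure D5:**
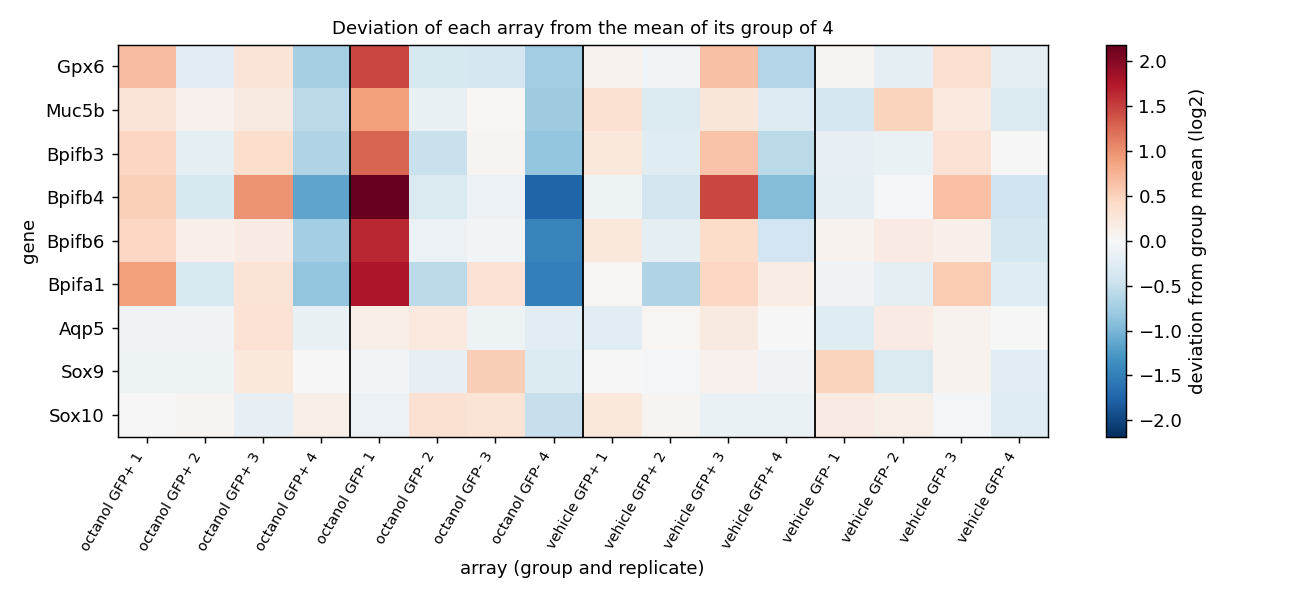
Deviation of each of the 16 arrays from the mean of its group, in log2, for Gpx6, Muc5b, 4 secreted Bpif genes, Aqp5, Sox9 and Sox10; red is above the group mean and blue below. The upper 6 genes are high in octanol replicate 1 and low in octanol replicate 4, up to 2.18 for Bpifb4.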

How the data were processed

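RNA of 16 samples (8 pools of 3 mice, both fractions) was measured on Clariom S arrays. The authors' deposited unit is the log2 signal from Affymetrix Expression Console, per the submitters' processing notes. No source used here states its version, algorithm or normalization, and no further scaling was applied. Of 28846 probe sets, 19572 carry 1 gene symbol, and the highest mean per gene left 19505 genes, named by the platform annotation; each member had 1 probe set.

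GFP+ against GFP- was fitted on 16 arrays, each pool a fixed block, leaving 6 residual degrees of freedom, and octanol against vehicle on 8 arrays of a fraction, with limma 3.58.1 in R 4.3.3 (lmFit, eBayes, 2-sided), adjusted over all genes by Benjamini-Hochberg (threshold 0.05) and tested on simulated data. The pairing is inferred from 24 mice making 8 pools. After removal of group means, fractions of 1 pool correlated at 0.160 on average (0.0779 to 0.222). Arrays of different mice with the same number and fraction averaged 0.181 (0.0582 to 0.332). Other pairs of different groups averaged -0.0340 (-0.286 to 0.257). These values do not single out the inferred pairing. The labels do not say whether pools were handled separately after dissection.

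The 5 genes, the lists and the rules were chosen with earlier results of these data known. Beyond the 5, the text names up to 3 called genes per related list in each exposure, by size of difference with 1 sign in all 4 pools, part of the up to 2 per cell marker list found this way, and the 3 genes most like each member. Creb3l1, Fabp7, Slc12a2, Muc2, Muc5ac, Scgb1c1, Bpifb3, Bpifb4, Bpifb6 and Bpifa1 in the lists were added after their values were seen. Alternatives were other scalings, a background filter or floor, a variance trend, the block, and leaving out each replicate.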

Additional observations from a re-analysis of the deposited data

How the results depend on the processing

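Scaling set the balance of all genes and left the call of Sox9, Sox10, Aqp5 and Gpx6 as it was. Genes called between fractions after octanol numbered 5826 as deposited, 13429 with arrays centred on their own median and 9276 with arrays centred on odorant receptors; after vehicle they numbered 5502 as deposited and 14745 with the median centring. Genes higher in GFP+ cells made up 55.9% of those called after octanol and 52.2% after vehicle as deposited, 63.4% and 65.0% after quantile normalization, 84.9% and 86.5% with median centring and 5.78% and 12.6% with receptor centring, where the median of all genes was 0.41 and 0.46 with median centring and -0.36 and -0.17 with receptor centring. Muc5b turned to 0.21 after octanol by quantile normalization, to 0.22 by median centring and to 0.15 without octanol replicate 1 (from -0.14 to 0.15 over replicates left out); after vehicle it was -0.042 with receptor centring and 0.59 with median centring, where it was called higher (adjusted p = 0.0349). The effect of octanol on the Sox10 difference was -0.070 with receptor centring and -0.082 without octanol replicate 4 (from -0.082 to 0.29 over replicates left out). That on Gpx6 was 0.22 without octanol replicate 1 and 0.05 without vehicle replicate 3 (from -0.26 to 0.22 over replicates left out). Sox9 in GFP- cells, octanol minus vehicle, was 0.034 by quantile normalization, 0.036 and 0.15 by median and receptor centring, and from -0.19 to 0.16 over arrays left out (0.01, 0.05, 0.09, 0.16 and 0.02 where it turned positive). The cause of these changes was not tested.

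Without the replicate block 5280 genes were called after octanol and 4991 after vehicle, 3 of the 5 Bowman gland genes each, as Gpx6 was lost (-0.91, adjusted p = 0.106, and -0.86, adjusted p = 0.130); with the replicate number as a block, octanol against vehicle gave 0 genes in both fractions. Raising values to background lost Sox10 after octanol (-0.17, adjusted p = 0.273). With a replicate left out, genes called ran from 3969 to 5648 after octanol, with 4 Bowman gland genes each time, and from 4024 to 5490 after vehicle, with 3 or 4; vehicle replicate 4 cost Gpx6 its call (-0.72, adjusted p = 0.0536). Octanol against vehicle, and the change of the fraction difference, gave 0 genes under every alternative run. Sox10 is limited by its nearness to background, as is Muc5b on its lowest arrays and, to a lesser degree, Aqp5 in GFP+ cells after vehicle. Groups of 4 arrays limit the rest.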
